A study of Mus musculus with 19 samples.

Results

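*Rbm24*, *Cap2*, *Pde10a*, *Ptprn* and *Kng2* are 5 genes of the 53558 in the deposited gene tables, chosen for having few counts in mouse lung tumors with an intact *Lkb1* gene and many counts in tumors in which *Lkb1* was targeted. The choice used the levels in the sgInert and sgLkb1 libraries, so the difference between those groups is given here as a description and carries no test. *Stk11* is the official symbol of *Lkb1*. All 5 genes were found in the tables, and all 5 were among the 13986 genes that passed the filter on low counts. For *Rbm24*, *Pde10a* and *Ptprn* this was so only because of the sgLkb1 libraries, since they did not pass when those libraries were left out.

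Tumors were grown for 17 weeks in KT;H11LSL-Cas9 mice, which carried Cre-activated alleles, among them Cas9 and the fluorescent reporter tdTomato. The mice were on a mixed background and were young adults when infected, and the age of each mouse is not given in the sources used here. Lenti-sgRNA/Cre vectors delivered through the trachea switched on these alleles in the infected cells, whichever cell type took up the virus. The 7 sgInert libraries carried the control guides sgNeo1, sgNT1 and sgNeo2, the 7 sgCebpa/b/d libraries carried a guide against each of *Cebpa*, *Cebpb* and *Cebpd*, and the 5 sgLkb1 libraries carried a guide against *Lkb1*. Neoplastic cells were sorted from dissected tumors after removal of cells with CD45, CD31, F4/80 or Ter119 at their surface, and total RNA was sequenced. The sgInert group had 3 female and 4 male libraries, the sgCebpa/b/d group 4 and 3, and the sgLkb1 group 5 and 0. Library titles begin with MT or ZR and an animal number or give no animal number, and what these series mean is not given in the sources used here. The 3 male sgCebpa/b/d libraries (replicates 5, 6 and 7) were exactly the 3 of that group without an animal number, so sex and title series cannot be told apart there. Some numbered titles share an animal, so that libraries are not all separate mice, and p-values measure the spread between these libraries. Replicates 1, 3 and 4 of sgCebpa/b/d share an animal, as do sgInert replicates 2 and 5 and sgLkb1 replicates 2 and 3.

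LKB1 is a kinase that switches on AMPK and the related salt-inducible kinases (SIKs). SIKs phosphorylate the CRTC coactivators and keep them out of the nucleus, and CRTC proteins that reach the nucleus raise transcription driven by CREB, which binds the cAMP response element. Of the 5 genes, *Rbm24* encodes an RNA-binding protein best known as a splicing and mRNA stability factor of heart and skeletal muscle. *Cap2* encodes a cyclase-associated protein that helps to recycle actin monomers and is mostly found in muscle, brain and skin. *Pde10a* encodes a phosphodiesterase that degrades cAMP and cGMP and is most abundant in striatal neurons. *Ptprn* encodes IA-2, a transmembrane protein of dense-core vesicles in neuroendocrine cells with a phosphatase-like domain that lacks activity. *Kng2* encodes a kininogen, the precursor of bradykinin and an inhibitor of cysteine proteases, which is made chiefly in the liver.

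On GRCm38 (mm10), *Rbm24* (ENSMUSG00000038132.6) lies at chr13:46418434-46431095 and *Cap2* (ENSMUSG00000021373.16) at chr13:46501848-46650281, both on the plus strand and separated by 70752 bases. *Pde10a* (ENSMUSG00000023868.17) lies at chr17:8525372-8986648 on the plus strand. *Ptprn* (ENSMUSG00000026204.15) lies at chr1:75247027-75264502 and *Kng2* (ENSMUSG00000060459.14) at chr16:22985854-23029482, both on the minus strand. RefSeq (GRCm38.p6) gave 7 promoter windows of 300 bases for the 5 genes, each running from 250 bases before to 50 bases after an annotated start. They were searched on both strands for the cAMP response element TGACGTCA and for its core TGACG, which is part of the longer motif. No window held TGACGTCA, which occurred in 1.79% of 32851 promoters of the same length. The core occurred in the window of *Rbm24* and in 1 of 2 windows of *Ptprn*, against 20.8% of all promoters, and not in the windows of *Cap2*, *Pde10a* and *Kng2*. A match is a run of letters and not a measured binding site, and the lack of a match says only that these letters are absent from the window. The windows of the neighbors *Rbm24* (chr13:46418050-46418349, plus strand) and *Cap2* (chr13:46501653-46501952, plus strand), and that of *Ptprn* with 2 matches (chr1:75264159-75264458, minus strand), are shown 5′ to 3′ on the strand of the gene, with TGACG and its reverse complement in capitals.
Rbm24: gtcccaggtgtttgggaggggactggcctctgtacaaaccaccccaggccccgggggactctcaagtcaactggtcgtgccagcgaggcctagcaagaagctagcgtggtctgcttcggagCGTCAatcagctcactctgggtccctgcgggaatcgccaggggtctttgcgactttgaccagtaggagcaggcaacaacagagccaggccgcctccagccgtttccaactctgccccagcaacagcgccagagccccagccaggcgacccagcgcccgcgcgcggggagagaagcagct
Cap2: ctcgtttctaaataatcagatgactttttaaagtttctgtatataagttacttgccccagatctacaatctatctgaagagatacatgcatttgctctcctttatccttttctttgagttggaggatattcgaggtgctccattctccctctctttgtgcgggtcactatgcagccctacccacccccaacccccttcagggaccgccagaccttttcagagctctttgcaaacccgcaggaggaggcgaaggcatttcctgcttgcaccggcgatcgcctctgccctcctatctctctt
Ptprn: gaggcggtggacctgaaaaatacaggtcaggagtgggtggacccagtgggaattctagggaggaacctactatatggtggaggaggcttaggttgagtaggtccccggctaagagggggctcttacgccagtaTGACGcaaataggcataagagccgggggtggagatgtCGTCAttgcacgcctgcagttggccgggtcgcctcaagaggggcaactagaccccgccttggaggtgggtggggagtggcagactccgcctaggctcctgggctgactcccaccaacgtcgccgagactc

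The match in the *Rbm24* window began 129 bases before the start. Those in the *Ptprn* window began 117 and 80 bases before the start, the first on the strand of the gene and the other on the opposite strand.

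As a check of the labels, *Stk11* was measured in CPM, the counts per 1000000 of a library's total after scaling by the TMM method. It was at 19.5 to 22.9 CPM in sgInert libraries. The sgCebpa/b/d range was 14.5 to 26.1 and the sgLkb1 range 7.53 to 12.5, so that every sgLkb1 library lay below every other library. Libraries held 2760731 to 9944134 estimated counts. Alveolar type II markers were abundant in all 19 libraries, with the 6 fixed genes summing to 25100 to 54800 CPM. Markers of the cell types in which the 5 genes are best known differed in level. Of 6 neuroendocrine markers, 4 had at most 10 counts in every library, including *Chga* with at most 5, and the list summed to at most 9.43 CPM. Likewise 6 of 7 hepatocyte markers and 4 of 6 neuron markers had at most 10 counts in every library, with *Ttr*, *Fgb*, *Tubb3* and *Drd2* at 0 throughout. The hepatocyte marker above that limit, *Alb*, was detected in every library, with up to 76 counts. The neuron markers *Snap25* and *Syt1* reached 17 and 18 counts. Of 9 striated muscle markers, *Myl2* was at 0 in every library, *Acta1* had at most 2 counts and *Ckm* at most 10, while *Myh7*, *Ttn* and *Myh6* were detected in all. *Myh7*, a cardiac and slow muscle myosin, had 194 to 438 CPM in sgInert, and its sgCebpa/b/d and sgLkb1 ranges were 144 to 231 and 83.7 to 184. In sgInert the muscle list summed to 228 to 486 CPM, and in the sgCebpa/b/d and sgLkb1 groups to 177 to 250 and 101 to 211, without overlap between sgInert and sgLkb1.

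Despite the sort, markers of cells the gate was to remove were detected, and their levels differed between libraries. Whether these transcripts came from such cells or from the tumor cells was not tested. The 4 endothelial markers summed to 5.82 to 35.6 CPM in sgInert and 29.4 to 132 in sgLkb1 libraries. In sgCebpa/b/d they summed to 9.89 to 39.9 in the 4 MT libraries and 128 to 179 in the 3 libraries without an animal number. The 5 immune markers other than *Lyz2*, which alveolar type II cells also express, summed to at most 7.22 CPM in every library with an animal number, to 40.9 to 49.0 in the unnumbered sgCebpa/b/d libraries and to 13.3 to 50 in the unnumbered sgLkb1 libraries. The paper gives hematopoietic and endothelial cells as those the antibodies were to exclude, and does not name fibroblasts there. The 6 fibroblast markers summed to 16.4 to 306, 85.2 to 311 and 151 to 391 CPM in sgInert, sgCebpa/b/d and sgLkb1. With *Lyz2* the immune list summed to 12000 to 18300, 462 to 2740 and 3030 to 5690. The part of RNA from other cells in the levels below was not tested, and in bulk RNA fewer cells with a transcript and less of it per cell cannot be told apart.

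**Figure D1:**
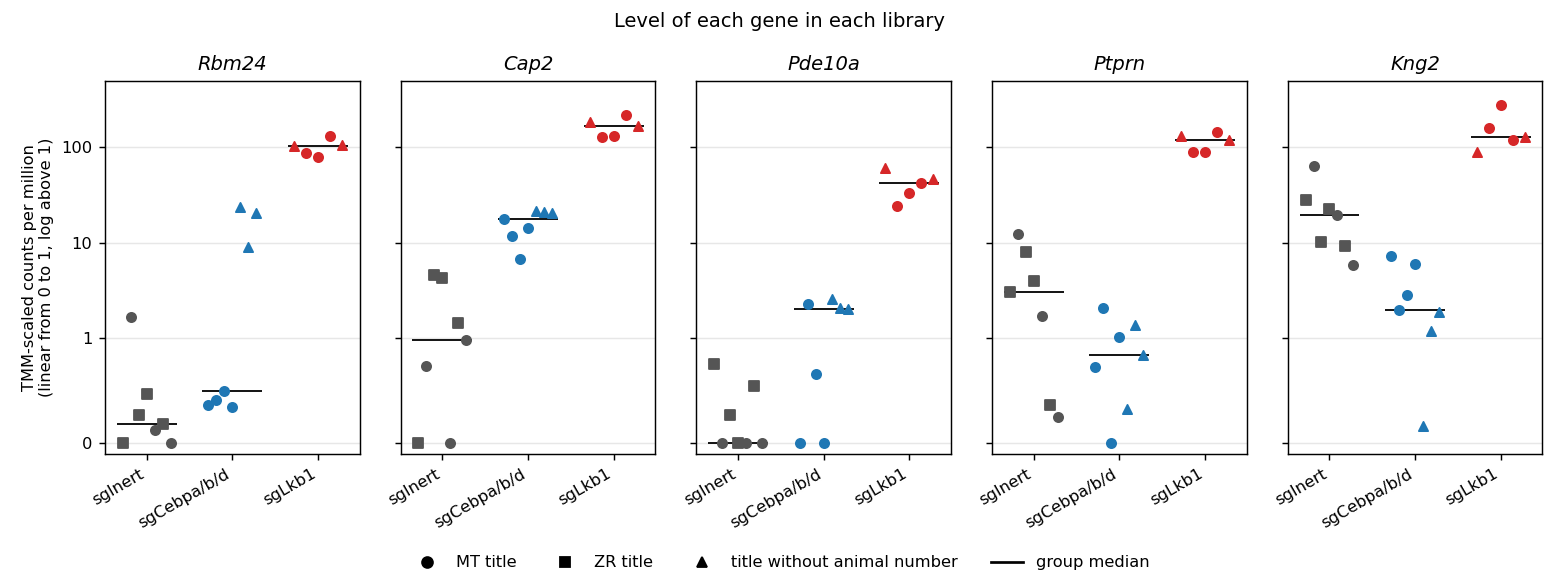
Level of each of the 5 genes in all 19 libraries, in TMM-scaled CPM on an axis that is linear from 0 to 1 and logarithmic above 1. Points are libraries (7 sgInert, 7 sgCebpa/b/d, 5 sgLkb1), their shape gives the title series and bars are group medians. Every sgLkb1 point lies above every other point of its gene, and for Rbm24 the 3 sgCebpa/b/d libraries without an animal number (8.97 to 23.8) stand apart from the other 4 (0.339 to 0.495).

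*Rbm24*, the splicing factor, was close to absent in sgInert libraries. The estimated counts in sgInert replicates 1 to 7 were 0, 9, 1, 2, 1, 1 and 0. In sgLkb1 replicates 1 to 5 they were 900, 561, 529, 1330 and 729. The 14 sgInert counts (exact 95% Poisson interval 7.65 to 23.5, counting error only) set how well the control level is known, and 9 of them came from replicate 2. Mean CPM was 0.383 ± 0.577 (SD, n = 7) in sgInert and 102 ± 19.5 (n = 5) in sgLkb1, a ratio of 266, or 587 without sgInert replicate 2. The fitted log2 fold change was 7.97 ± 0.97 (SE), the highest of all genes tested. It was 10.62 with sex as a covariate, and the whole sgLkb1 group was female.

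In sgCebpa/b/d libraries *Rbm24* split by title series. Replicates 1 to 4, all MT and female, had 1, 4, 3 and 2 counts, which lie in the sgInert range. Replicates 5 to 7, all without an animal number and male, had 149, 53 and 122 counts, more than any sgInert and fewer than any sgLkb1 library. Over all 7 libraries the fitted log2 difference to sgInert was 4.30 ± 1.01 (SE). It is given with no test, as are those of *Pde10a* and *Ptprn*, because these 3 genes passed the filter only through the sgLkb1 libraries and were chosen for low sgInert levels. The difference rested on the 3 unnumbered libraries, since it was -0.50 among MT libraries, -0.75 among females and 0.07 among libraries with an animal number. The same 3 libraries had the highest endothelial and immune sums of the group (128 to 179 and 40.9 to 49.0 CPM), and the part of RNA from other cells in their *Rbm24* level was not tested.

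*Cap2*, the actin regulator next to *Rbm24*, had 0, 4, 17, 18, 0, 8 and 4 counts in sgInert replicates 1 to 7. The sgCebpa/b/d replicates 1 to 7 had 49, 115, 41, 84, 136, 125 and 122 counts, and sgLkb1 replicates 1 to 5 had 1600, 820, 867, 2226 and 1167. The 3 groups did not overlap. Mean CPM was 1.69 ± 1.89 in sgInert and 16.3 ± 5.60 in sgCebpa/b/d. The sgLkb1 mean of 167 ± 37.9 was 98.5 times that of sgInert. *Cap2* rose in sgCebpa/b/d against sgInert by 3.42 ± 0.48 on the log2 scale (edgeR quasi-likelihood test, Benjamini-Hochberg adjusted p = 5e-05), a test whose sgInert libraries also entered the choice of the gene, and 179 of 13986 genes (1.28%) had every sgCebpa/b/d library above every sgInert library. The rise held within title series, where the 4 MT sgCebpa/b/d libraries (6.76 to 17.7 CPM) all exceeded the 3 MT sgInert libraries (0 to 0.974 CPM). These came from only the animals MT1203 and MT1205 (sgCebpa/b/d) and MT1161 and MT1231 (sgInert), fewer mice than libraries. In the 4 MT sgCebpa/b/d libraries *Rbm24* was at 0.339 to 0.495 CPM, within its sgInert range.

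*Pde10a*, the cAMP and cGMP phosphodiesterase, had 4, 0, 1, 0, 0, 3 and 0 counts in sgInert replicates 1 to 7 and was thus at 0 in 4 of 7. The sgLkb1 replicates 1 to 5 had 522, 153, 220, 435 and 319 counts. Mean CPM was 0.223 ± 0.312 in sgInert, which rests on 8 counts (Poisson interval 3.45 to 15.8), and 41.4 ± 13.7 in sgLkb1, a ratio of 186. In sgCebpa/b/d replicates 1 to 7 there were 0, 22, 4, 0, 16, 12 and 12 counts. These libraries fell into 2 at zero, 1 low and 4 with at least 12 counts, above every sgInert library. The fitted log2 difference between sgCebpa/b/d and sgInert was 2.61 ± 0.75, or 1.93 among libraries with an animal number.

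For *Pde10a* the effective length, which RSEM derives from the mix of isoforms it assigns, was 7059 to 7385 bases in the 5 sgLkb1 libraries, near the longest of its 14 annotated transcripts (7769 bases). In the 4 sgCebpa/b/d libraries with at least 10 counts it was 2328 to 5068 bases. The ranges did not overlap, but lengths from so few counts are uncertain, and no sgInert library reached 10 counts. Across all libraries with at least 10 counts the effective length was 2752 to 2874 bases for *Rbm24*, 1351 to 1397 for *Kng2*, 2014 to 3501 for *Cap2* and 1105 to 3330 for *Ptprn*.

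*Ptprn*, the dense-core vesicle gene, was low but detected in all sgInert libraries, with 16, 67, 30, 17, 13, 2 and 1 counts in replicates 1 to 7. The sgLkb1 replicates 1 to 5 had 1149, 570, 586, 1475 and 826 counts. Mean CPM was 4.20 ± 4.4 in sgInert and 115 ± 25.4 in sgLkb1, a ratio of 27.4. Unlike *Rbm24*, *Cap2* and *Pde10a*, *Ptprn* had a lower level in sgCebpa/b/d than in sgInert, with 2, 20, 0, 6, 2, 8 and 5 counts in replicates 1 to 7, although only the library at 0 lay below every sgInert library. The fitted log2 difference was -2.07 ± 0.62, or -1.46 without sgInert replicate 2, which had the highest level.

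*Kng2*, the kininogen gene, does not match the description of a nearly silent gene. All sgInert libraries expressed it, with 149, 351, 38, 98, 153, 51 and 24 counts in replicates 1 to 7. In TPM, the unit of RSEM that corrects for transcript length, its sgInert median of 18.9 lay at percentile 67.9 of the genes tested, whereas the medians of *Rbm24*, *Cap2*, *Pde10a* and *Ptprn* lay at percentiles 1.13, 4.26, 0.415 and 17.3. In sgLkb1 replicates 1 to 5 *Kng2* had 776, 1017, 1852, 1223 and 879 counts. Mean CPM was 22.8 ± 19.9 in sgInert and 156 ± 74.3 in sgLkb1, a ratio of 6.82, and the fitted log2 fold change of 2.76 ± 0.48 ranked at place 104 of all genes tested. The other ranks were 1 for *Rbm24*, 4 for *Pde10a*, 5 for *Cap2* and 10 for *Ptprn*.

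*Kng2* fell in sgCebpa/b/d libraries, where replicates 1 to 7 had 20, 19, 17, 35, 1, 7 and 11 counts. The decrease was 3.07 on the log2 scale (SE 0.54, edgeR, adjusted p = 0.000619), and 5 of 7 sgCebpa/b/d libraries lay below every sgInert library in CPM. The sgInert libraries of this test also entered the choice of *Kng2*, so the call is not independent of that choice. The call held in every alternative, with log2 differences of -2.41 to -3.40. The unnumbered libraries were at 0.16 to 1.84 CPM and the MT libraries at 1.94 to 7.24, against 5.85 to 63.9 in the 3 MT sgInert libraries. *Kng1*, the neighboring paralog, had 0 counts in 16 of 19 libraries and 1.03, 2.01 and 11.04 in 3 sgLkb1 libraries. In those 3 libraries the *Kng2* count was not whole (tolerance 0.001), by at most 0.04, and how many reads the paralogs shared cannot be told from the estimates.

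Side by side, *Rbm24*, *Cap2* and *Pde10a* were higher and *Ptprn* and *Kng2* lower in mean level in sgCebpa/b/d than in sgInert. Of all genes tested, 2.65% were called higher and 2.00% lower in that comparison (adjusted p under 0.05 and a log2 difference above 1 in size). *Cap2* and *Kng2*, the members that passed the filter without the sgLkb1 libraries, were called in every setting tried, but all 5 were chosen for low sgInert levels, so that calls against those libraries are not independent of the choice. In sgLkb1 against sgInert 1.87% of genes were called higher and 1.14% lower, and 2.15% had every sgLkb1 library above every sgInert library, as the 5 genes do by choice. Every sgLkb1 library also exceeded every sgCebpa/b/d library for all 5 genes, as for 2.87% of genes tested. Because the genes were chosen for high sgLkb1 levels, neither this nor the ratios that follow are independent of the choice. The sgLkb1 mean CPM was 10.3 times the sgCebpa/b/d mean for *Cap2*, 13 times for *Rbm24*, 30.5 times for *Pde10a*, 51.6 times for *Kng2* and 128 times for *Ptprn*. Both comparisons share the sgInert libraries.

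Within the sgLkb1 group the 5 genes reached different levels. Median TPM was 138 for *Kng2*, 80.8 for *Ptprn*, 73.9 for *Cap2*, 53.7 for *Rbm24* and 9.16 for *Pde10a*. Ranges were 97.4 to 294, 46.6 to 84.8, 63.7 to 112, 41.2 to 73.9 and 4.56 to 12.8 TPM, so that the levels of *Ptprn*, *Cap2* and *Rbm24* overlapped, while *Pde10a* lay below and, in each library, *Kng2* above the others. *Rbm24*, *Cap2* and *Ptprn* varied little between sgLkb1 libraries, their highest CPM being 1.63, 1.70 and 1.63 times the lowest. *Pde10a* varied 2.51 times and *Kng2* 3.14 times. Replicate 4 was highest for *Rbm24*, *Cap2* and *Ptprn*, replicate 1 for *Pde10a* and replicate 3 for *Kng2*. Replicates 2 and 3, which come from the same animal, were the lowest pair for *Rbm24*, *Cap2*, *Pde10a* and *Ptprn* and the highest pair for *Kng2*.

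**Figure D2:**
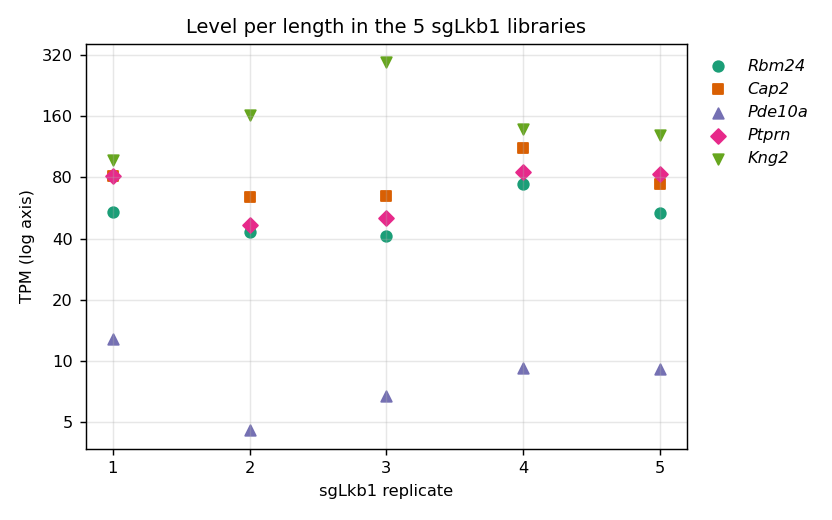
TPM of the 5 genes in each of the 5 sgLkb1 libraries, on a logarithmic axis. Kng2 (97.4 to 294 TPM) is the highest and Pde10a (4.56 to 12.8 TPM) the lowest in every library, and the other 3 genes lie between 41.2 and 112 TPM.

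Across all 19 libraries the log2 CPM of *Rbm24*, *Cap2* and *Pde10a* went together, with Pearson r of 0.832 to 0.912. *Ptprn* and *Kng2* had r = 0.862. With *Rbm24*, *Cap2* and *Pde10a*, *Ptprn* had r of 0.738, 0.631 and 0.791, and *Kng2* had r of 0.439, 0.311 and 0.524. These correlations describe libraries that fall into 3 groups and share their depth and title series. The choice of the 5 genes by their sgInert and sgLkb1 levels also builds in part of their likeness. The genes outside the 5 with the most similar pattern were picked by this r. For *Rbm24* they were *Mcam* (r = 0.949), a cell adhesion molecule, the transcription factor gene *Tshz1* (0.923) and *Wfdc1* (0.906). For *Cap2* they were *Tpcn2* (0.922), an ion channel of endolysosomes, *Tmem252* (0.919) and *Pam* (0.904), which amidates peptide hormones. *Mcam* had 1.70 to 5.40 CPM in sgInert libraries, and its ranges in the sgCebpa/b/d and sgLkb1 groups were 3.13 to 42.5 and 45.3 to 77.2.

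For *Pde10a* the most similar genes were *Tshz1* (0.943), *Stc1* (0.921), which encodes the secreted glycoprotein stanniocalcin, and *Cacng3* (0.912), a calcium channel and AMPA receptor subunit gene. *Cacng3* was also the gene most like *Ptprn* (0.899), followed by *Zfp516* (0.898) and *Tmem184c* (0.876). *Cacng3* had 0 counts in every sgInert and sgCebpa/b/d library and 2.85 to 5.53 CPM in sgLkb1 libraries. For *Kng2* the nearest were the imprinted long noncoding RNAs *Rian* (0.911) and *Meg3* (0.896), which are neighbors, and *Rai14* (0.906). For *Rian* the sgInert, sgCebpa/b/d and sgLkb1 ranges were 384 to 1170, 141 to 447 and 1220 to 1390 CPM, and for *Meg3* 233 to 679, 71.7 to 237 and 503 to 915.

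The 3 nearest protein-coding genes on each side gave 24 neighbors that are not among the 5, of which 12 could be tested and 12 were too low. None of the 12 was called by edgeR in either comparison (unadjusted p under 0.05 for 2 in sgLkb1 and 4 in sgCebpa/b/d), limma called 0, and DESeq2 called only *Fetub*, in sgCebpa/b/d. Of all genes tested edgeR called 1.87% higher and 1.14% lower in sgLkb1, and 2.65% and 2.00% in sgCebpa/b/d. With such shares, no call among 12 genes says little. The log2 fold changes of the 12 ran from -0.35 to 0.62 in sgLkb1 and from -1.05 to 0.84 in sgCebpa/b/d. *Stmnd1*, just before *Rbm24*, had at most 16 counts. *Fam8a1* and *Nup153*, which follow *Cap2*, were abundant and changed by 0.14 ± 0.11 (adjusted p = 0.554) and 0.13 ± 0.11 (adjusted p = 0.588) in sgLkb1, beside 7.97 for *Rbm24* and 6.79 for *Cap2*. Further out, *Gmpr* (-0.35 ± 0.20, adjusted p = 0.378), *Atxn1* (-0.17 ± 0.15, adjusted p = 0.603) and *Kif13a* (0.01 ± 0.14, adjusted p = 0.976) were not called in sgLkb1. In sgCebpa/b/d *Gmpr* was 0.69 ± 0.18 higher (adjusted p = 0.016), under the fold threshold.

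Around *Ptprn*, *Resp18*, which encodes another dense-core vesicle protein, had at most 1 count in any library, and *Dnajb2* (-0.17 ± 0.27, adjusted p = 0.815) and *Dnpep* (0.21 ± 0.21, adjusted p = 0.66) did not pass the test in sgLkb1. Near *Kng2*, the liver gene *Hrg* had at most 4 counts and *Ahsg* at most 2, while *Fetub*, a type 3 cystatin like the kininogens, averaged 15.7 CPM in sgInert, 7.57 in sgCebpa/b/d (log2 difference -1.05 ± 0.38, adjusted p = 0.0881) and 21.3 in sgLkb1 (0.44 ± 0.40, adjusted p = 0.629). *Eif4a2*, further along, differed by 0.36 ± 0.10 in sgLkb1 (adjusted p = 0.0321) and 0.33 ± 0.09 in sgCebpa/b/d (adjusted p = 0.0223), under the fold threshold. Around *Pde10a* 5 of 6 neighbors had at most 17 counts, including *T*, which encodes Brachyury, at 0 in every library. *Gm17087*, annotated on the opposite strand inside *Pde10a*, had at most 1 count.

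**Figure D3:**
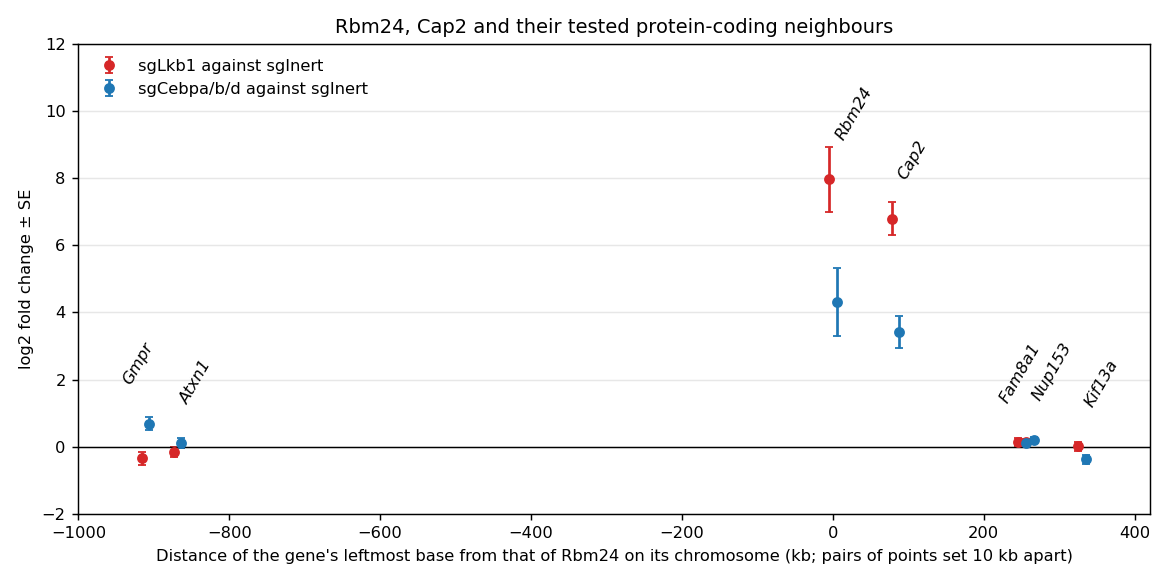
Log2 fold change (± SE) of Rbm24, Cap2 and their tested protein-coding neighbors against the distance of the leftmost base of each gene from that of Rbm24, for sgLkb1 and sgCebpa/b/d against sgInert. Rbm24 (7.97 and 4.30) and Cap2 (6.79 and 3.42) stand apart from Gmpr, Atxn1, Fam8a1, Nup153 and Kif13a, which lie between -0.38 and 0.69.

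The other genes of each pathway were taken from lists, and the median log2 fold change of all genes tested was -0.01 in sgLkb1 and 0.02 in sgCebpa/b/d. Beside the list counts below, edgeR called 1.87% of all genes tested higher and 1.14% lower in sgLkb1. In sgCebpa/b/d these shares were 2.65% and 2.00%. Of 16 splicing regulators 13 were tested and none was called by edgeR, DESeq2 or limma in either comparison, with medians of 0.02 and 0.14. The unadjusted edgeR p was under 0.05 for 2 in each. In sgLkb1 these passed the adjusted threshold but not the fold threshold, *Mbnl3* at -0.70 ± 0.13 (adjusted p = 0.00161) and *Esrp2* at 0.42 ± 0.11 (adjusted p = 0.0237), both named after their values were seen. *Mbnl1* (987, 1120 and 1110 CPM on average in sgInert, sgCebpa/b/d and sgLkb1) and *Mbnl2* (668, 625 and 665) were the most abundant. *Rbm38*, the paralog of *Rbm24*, had overlapping sgInert, sgCebpa/b/d and sgLkb1 ranges of 0.90 to 3.35, 0.362 to 3.51 and 0.808 to 2.65 CPM.

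Of 19 actin turnover genes, 1 was called higher in sgLkb1 (median 0.11) and none in sgCebpa/b/d by edgeR, DESeq2 or limma (median 0.10, unadjusted edgeR p under 0.05 for 5). Another 4 genes, named after their values were seen, passed the adjusted threshold in sgCebpa/b/d with differences under the fold threshold. They were *Tmsb4x* (0.71, adjusted p = 0.000104), *Ssh2* (0.56, adjusted p = 0.000174), *Cfl1* (0.37, adjusted p = 0.00918) and *Dstn* (0.33, adjusted p = 0.014). *Limk1*, the kinase that inactivates cofilin, rose from 4.01 to 11.5 CPM in sgInert to 14.4 to 23.9 in sgLkb1 libraries, without overlap (log2 1.41 ± 0.29, edgeR, adjusted p = 0.00483, or 0.0513 among libraries with an animal number). In sgCebpa/b/d its difference was -0.01 ± 0.28 (adjusted p = 0.986). *Cap1*, the widely expressed paralog of *Cap2*, had 49.9 to 77.1, 56.9 to 100 and 54.7 to 96.7 CPM in sgInert, sgCebpa/b/d and sgLkb1 and was not called. On the TPM scale *Cap2* reached 63.7 to 112 in sgLkb1 libraries, and *Cap1* was at 35.4 to 65.8.

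Among 20 other phosphodiesterases, 14 were tested. In sgLkb1, 2 were called higher and 0 lower (median 0.32), and in sgCebpa/b/d 1 higher and 1 lower (median 0.09). *Pde4b*, which degrades cAMP, rose from a median of 18.2 CPM (12.4 to 61.2) in sgInert to 112 (76.2 to 151) in sgLkb1, by 1.76 ± 0.36 on the log2 scale (adjusted p = 0.00404), and was 0.57 ± 0.33 higher in sgCebpa/b/d (adjusted p = 0.323). *Pde5a*, specific for cGMP, rose in both, by 1.40 ± 0.29 (adjusted p = 0.00534) and 1.23 ± 0.28 (adjusted p = 0.00516, or 0.0674 among libraries with an animal number). *Pde7b*, another cAMP enzyme, fell in sgCebpa/b/d from 238 to 387 CPM to 88.3 to 151 (log2 -1.39 ± 0.12, adjusted p = 1.41e-07) and was at 313 to 389 CPM in sgLkb1. The abundant *Pde7a* and *Pde4d* differed by 0.23 and 0.18 in sgLkb1 and were not called.

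Of 15 genes for adenylyl cyclases and protein kinase A, 11 were tested, with 2 called higher in sgLkb1 (median 0.23) and 1 in sgCebpa/b/d (median 0.25). *Adcy4* was called higher in both comparisons, by 3.23 ± 0.75 in sgLkb1 (adjusted p = 0.0109) and 2.95 ± 0.72 in sgCebpa/b/d (adjusted p = 0.00893), from at most 0.72 CPM in sgInert. Among MT libraries neither was called (2.66, adjusted p = 0.077, and 1.15, adjusted p = 0.497). Among libraries with an animal number the sgLkb1 call held (2.76, adjusted p = 0.0365) and the sgCebpa/b/d call did not (1.23, adjusted p = 0.381). With limma the sgLkb1 call held (1.61, adjusted p = 0.00578) and the sgCebpa/b/d call did not (0.70, adjusted p = 0.206). With only the 2 groups compared, *Adcy4* gave no value in either comparison. *Adcy3* was higher in sgLkb1 by 2.17 ± 0.55 (adjusted p = 0.0214), with at most 4.04 CPM, and not past the threshold among libraries with an animal number (adjusted p = 0.0764). The abundant protein kinase A subunit genes *Prkar1a* (0.25), *Prkar2a* (0.23) and *Prkacb* (0.22) were not called in sgLkb1.

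The dense-core vesicle list was largely silent around *Ptprn*. Of 21 genes 8 were tested, with 1 called higher and 1 lower in sgLkb1 (median -0.61) and 1 higher in sgCebpa/b/d (median -0.16). *Scg3*, *Pcsk2* and *Pcsk1n* were at 0 in every library. *Pam* rose in both, from 22.6 to 46.8 CPM in sgInert to 81.4 to 90.9 in sgLkb1 (log2 1.34 ± 0.14, adjusted p = 3.54e-06) and 64.6 to 82.0 in sgCebpa/b/d (1.09 ± 0.13, adjusted p = 7.29e-06). *Ptprn2*, the paralog of *Ptprn*, went the other way, from 4.90 to 10.6 CPM in sgInert to 1.57 to 4.70 in sgLkb1 libraries (-1.30 ± 0.31, adjusted p = 0.0141, or 0.055 among libraries with an animal number).

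In the kinin list 5 of 15 genes were tested, with 1 called higher in sgLkb1 (median 0.44) and 1 higher and 1 lower in sgCebpa/b/d (median -1.05). *Klk1* and *F12* were at 0 in every library, and the bradykinin receptor genes *Bdkrb1* and *Bdkrb2* were too low to be tested. Enzymes that degrade kinins were present. *Ace* rose by 1.35 ± 0.26 in sgLkb1 (adjusted p = 0.00226) and 1.59 ± 0.24 in sgCebpa/b/d (adjusted p = 0.000122). Among females neither passed the threshold (1.19, adjusted p = 0.0534, and 1.2, adjusted p = 0.0721). The sgLkb1 difference was also not called among MT libraries (0.60, adjusted p = 0.207) or libraries with an animal number (0.76, adjusted p = 0.0777). The endothelial marker sums had medians of 13.5, 39.9 and 67.2 CPM in sgInert, sgCebpa/b/d and sgLkb1. The part of RNA from endothelial cells in the *Ace* level was not tested. *Mme*, which encodes neprilysin, fell in sgCebpa/b/d from 585 to 1900 CPM to 158 to 384 (-2.12 ± 0.21, adjusted p = 6.33e-07) and differed by -0.61 ± 0.22 in sgLkb1 (adjusted p = 0.118).

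Of 18 genes listed for CREB and CRTC, 17 were tested, and 2 were called higher in sgLkb1 and 4 in sgCebpa/b/d, none lower (medians 0.25 and 0.22). The shares called higher among all genes tested were 1.87% and 2.65%. *Sik1*, itself a CREB target, rose in sgLkb1 from 25.4 to 68.7 CPM to 77.4 to 131 (1.38 ± 0.24, adjusted p = 0.000879). *Fos* was 1.18 ± 0.35 higher in sgLkb1 (adjusted p = 0.047), a call that was lost in 11 of 19 fits that left out a single library, and 1.52 ± 0.33 higher in sgCebpa/b/d (adjusted p = 0.00364). *Fosb* (1.5 ± 0.35, adjusted p = 0.00648), *Dusp1* (1.15 ± 0.24, adjusted p = 0.00319) and *Sik2* (1.12 ± 0.31, adjusted p = 0.0208) rose in sgCebpa/b/d. Among libraries with an animal number these 4 did not pass the threshold in sgCebpa/b/d, with log2 differences of 1.05 for *Fos*, 1.15 for *Fosb*, 0.75 for *Dusp1* and 0.72 for *Sik2* (adjusted p 0.0995 to 0.273). Among MT libraries those of *Fos* and *Dusp1* were 0.44 (adjusted p = 0.0922) and 0.33 (adjusted p = 0.0605). *Fosb* kept its sgCebpa/b/d call there (log2 1.15, edgeR, adjusted p = 0.0115). *Nr4a1* (0.44), *Creb1* (-0.01) and *Atf1* (0.07) were not called in sgLkb1.

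**Figure D4:**
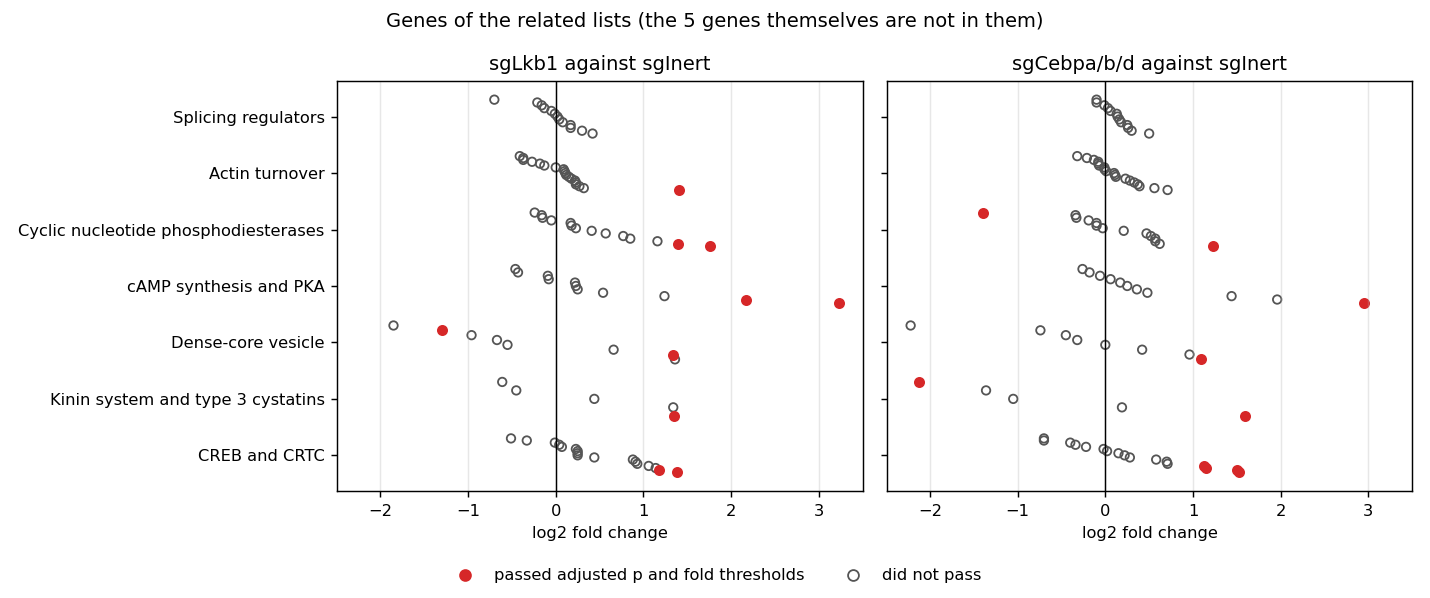
Log2 fold change of each tested gene of 7 related lists in sgLkb1 (left) and sgCebpa/b/d (right) against sgInert, with called genes filled. The highest point in both panels is Adcy4 (3.23 and 2.95), and splicing regulators hold no called gene in either panel.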

How the data were processed

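The authors aligned paired reads of 19 libraries to mm10 with STAR (2.6.1d) and estimated gene levels with RSEM (1.2.30). The deposited expected counts are RSEM estimates without normalization and need not be whole, and TPM, as deposited, holds these estimates per length, scaled to a fixed total. The authors' DESeq2 (1.26.0) comparisons, in 4 further files with their normalized signal, fold changes and p-values, were not used here. Groups, sexes and replicate numbers came from the labels. Members and gene lists were chosen with earlier results of these data known.

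Expected counts were rounded and fitted with edgeR (4.0.16, R 4.3.3) by the quasi-likelihood test after TMM scaling, with all 3 groups in a single model and genes kept by filterByExpr (minimum count 10, total 15). A call needed a Benjamini-Hochberg adjusted p under 0.05 over 13986 genes and a log2 fold change above 1 in size. Alternatives used DESeq2 (1.42.0), limma (3.58.1) on log2(TPM + 1), other filters, covariates or subsets, or left out each library. The scripts were tested on simulated data. Neighbors were the 3 nearest protein-coding genes on each side in GENCODE M21 (GRCm38), and similar genes the 3 with the highest Pearson r of log2 CPM (prior count 2). Values were printed for members, paralogs, called list genes and at most 3 uncalled genes of each list with the highest mean CPM. List genes and markers named as being at 0 or near it were picked after their values were seen. *Areg*, in the CREB list, was not analysed here. Replicates of a group differed by a chi-square per gene of 6.67 to 73.7, so none was counted as a repeat. Counts of amplified reads are not independent molecules, so intervals cover counting error only.
An allele that all mice shared and a neuroendocrine marker are not reported here by name.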

Additional observations from a re-analysis of the deposited data

Results flagged for a closer look

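In 2 of 15 groups of a gene's CPM values, a library stood apart from the rest by Dixon's test at the 95% level, which chance alone gives in about 5% of groups. Both were sgInert replicate 2, the highest of 7 for *Rbm24* (1.64 CPM, 9 counts) and for *Kng2* (63.9 CPM, 351 counts). The same library was also the highest sgInert library for *Ptprn* (12.2 CPM). Without it the sgLkb1 mean was 587 times the sgInert mean for *Rbm24*, 9.75 times for *Kng2* and 40.2 times for *Ptprn*. Replicate 5, a library of the same animal, had 0.129, 19.7 and 1.68 CPM of *Rbm24*, *Kng2* and *Ptprn*.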

How the results depend on the processing

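Genes called in sgCebpa/b/d against sgInert numbered 650, and 381 in female libraries and 419 in libraries with an animal number, the latter chosen after seeing the data. In sgLkb1 they numbered 421, and 750 with sex as a covariate. Leaving out a library gave 528 to 701 and 320 to 456 calls. In sgCebpa/b/d, *Cap2* and *Kng2* kept direction and call in all 30 alternatives each. Each alternative used sgInert libraries that also entered the choice of these genes, so the repeated calls are not independent of that choice. *Rbm24* turned to -0.75 in female and -0.50 in MT libraries, where no unnumbered sgCebpa/b/d library enters, and was 0.07 in numbered libraries and 1.21 with limma. *Pde10a* (0.42 to 5.72) and *Ptprn* (-2.52 to -0.57) did not change direction in the 29 alternatives that gave a value. These 3 differences carry no test. With only the 2 groups compared, *Rbm24*, *Pde10a* and *Ptprn* did not pass the filter and gave no value. The sgLkb1 differences of the 5 genes kept their sign throughout. Fitted sizes for *Pde10a* in female (11.12) and MT (10.76) libraries are no bounds, since the sgInert libraries there are at 0. Same-numbered libraries share only a number (r of deviations -0.388 to 0.418). With the replicate block, 610 (sgCebpa/b/d) and 525 (sgLkb1) genes were called. Depth limits *Rbm24* and *Pde10a* most, with 14 and 8 counts in all sgInert libraries together.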
